A study of Homo sapiens with 8 samples.

Results

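The cytosolic and mitochondrial chaperones are the proteins that fold, hold and refold other proteins outside the endoplasmic reticulum, together with the helper proteins that steer them. Genes were taken by symbol: those beginning with HSPA, HSPB, HSPD, HSPE, HSPH or HSP90, the J-protein genes DNAJA, DNAJB and DNAJC, the cytosolic chaperonin genes CCT2 to CCT8 and TCP1, and the co-chaperone genes BAG3, FKBP4, STIP1, AHSA1 and CHORDC1 with the heat shock factor HSF1. The endoplasmic reticulum chaperone genes HSPA5, HSP90B1, HSPA13, DNAJB9, DNAJB11 and DNAJC3 were left out. This gave 78 of the 14535 genes used, and 74 of them reached the level needed for a test, which was at least 1 CPM (read counts scaled to library size) in at least 2 libraries. The 4 untested genes, HSPA6, HSPA12B, DNAJC28 and DNAJC27-AS1, lay at or near the 3-read limit of 0.213 to 0.428 CPM in most libraries. The symbol rule also took in the pseudogenes CCT6P1 and CCT6P3, the antisense genes DNAJC9-AS1 and DNAJC27-AS1, and HSPB11, which encodes an intraflagellar transport protein of the cilium.

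Messenger RNA had been sequenced from Calu-6, a line of human lung cancer (NSCLC) whose genotype the labels give as WT. Cells in 6-well plates received KI696 at 1 µM, a compound that keeps KEAP1 from binding the transcription factor NRF2, or the vehicle DMSO, for 24 or 48 h. Each of the 4 groups holds 2 libraries, called A and B here by the order of their columns, and all come from a single cell line. The labels do not state whether a group's libraries are from independent cultures, and the p-values below may measure technical spread alone. The comparison asks how the chaperone transcripts stood with the compound at each time, and whether they moved with time in culture.

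HSP70 proteins bind short hydrophobic stretches of unfolded chains in cycles driven by ATP. J-proteins deliver the chains and start the cycle, and nucleotide exchange factors such as HSPH1 and BAG3 end it. HSP90 receives partly folded clients such as kinases and steroid receptors from HSP70 through the adaptor STIP1, and small heat shock proteins hold unfolded proteins without ATP. The CCT ring (also called TRiC) encloses actin, tubulin and other clients in the cytosol, and the HSPD1 and HSPE1 chamber does so in mitochondria. Many of these genes are known targets of HSF1, the heat shock factor, while KEAP1 holds NRF2 down in unstressed cells.

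The libraries held 6974235 to 14170211 reads in the table, and the 3-read limit covers counting error only. Of 8 NRF2 reference genes, which gave a check of the compound, 7 were higher with KI696 and 1 was lower at each time. The lower one was NFE2L2, which encodes NRF2 (log2 changes -0.21 and -0.26). NQO1, a quinone reductase, stood at 521 and 486 CPM in DMSO and at 1824 and 1852 CPM in KI696 at 24 h. All 9 epithelial markers were present in every library, and their summed level ran from 2118 to 2680 CPM in DMSO and from 952 to 1014 CPM in KI696 at 24 h, and from 1944 to 2040 CPM against 1077 to 1445 CPM at 48 h. Of 18 lung lineage markers 13 were in the table, and their summed level ran from 228 to 245 CPM against 97.2 to 104 CPM at 24 h, and from 176 to 183 CPM against 121 to 165 CPM at 48 h. In the 48 h sums ABCA3 alone took 108 and 113 CPM in DMSO and 54.5 and 62.2 CPM in KI696. The mean log2 level of the 11 tested markers at 48 h was 2.06 in DMSO library A and 2.92 in KI696 library A. In libraries B it was 0.77 in DMSO and 0.30 in KI696, so libraries A and B of each 48 h group lay apart. The letters follow column order and do not pair a DMSO library with a KI696 library. The marker SFTPB lay at 0.549 CPM or less in every library, with 0.119 and 0.138 CPM in DMSO at 24 h. It was at 0 reads in KI696 24 h libraries A and B and in both libraries B of 48 h. NKX2-1, the defining factor of the lung lineage, stood at 29.0 and 19.4 CPM in DMSO and at 0.857 and 2.14 CPM in KI696 at 24 h, and at 48 h at 12.1 CPM in library A and 2.49 CPM in library B of DMSO and 12.8 and 1.16 CPM in KI696. Of 8 leukocyte markers 4 were in the table, summing to 29.1 to 48.1 CPM, most of it CD68. Of 10 fibroblast and endothelium markers 8 were in the table, summing to 228 to 285 CPM in DMSO and 92.2 to 129 CPM in KI696. With the lung lineage mean added as a covariate, 28 chaperone genes were higher and 4 lower at 24 h, and 37 and 11 at 48 h, where the fit without it gave 37 and 7, and 36 and 10. Over all tested genes the covariate changed the counts from 2388 higher and 4034 lower to 1103 and 1910 at 24 h, and from 2955 and 3490 to 3131 and 3881 at 48 h. The part of the other marker lists in the chaperone results was not tested. In bulk RNA, fewer cells of a kind and less RNA per cell cannot be told apart.

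At 24 h, 37 of the 74 tested chaperone genes were higher with KI696 and 7 were lower by limma's moderated test (Benjamini-Hochberg adjusted p under 0.05 over the whole table), against 18.1% higher and 30.5% lower of all 13213 tested genes. At 48 h, 36 were higher and 10 were lower, against 22.4% and 26.4% of all tested genes. The median chaperone log2 change was 0.27 at 24 h and 0.22 at 48 h, where all tested genes had medians of -0.12 and -0.07. Both KI696 libraries lay above both DMSO libraries for 45 of the 74 at 24 h (29.7% of all tested genes did so) and for 42 at 48 h (32.5%). Both lay below for 15 at 24 h (47.4% of all) and 22 at 48 h (40.5%). With TMM scaling, which moved the median of all genes at 24 h to -0.01, the chaperone median was 0.37, with 43 genes higher and 6 lower. The same scaling changed the split over all genes at 24 h from 2388 higher and 4034 lower to 3271 and 3088.

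The changes were uneven between the chaperone classes, as the class plot shows. Both HSP90 genes, both genes of the mitochondrial chaperonin and 8 of 9 CCT genes were higher at each time. In the HSP70 class, 7 of 11 tested genes were higher and 1 was lower at 24 h, with 6 and 2 at 48 h. Of the 8 co-chaperone and HSF1 genes, 7 were higher at 24 h and 6 at 48 h, and none was lower. J-proteins were divided, with 11 of 35 higher and 5 lower at 24 h, against 18.1% and 30.5% of all tested genes. At 48 h, 11 J-proteins were higher and 6 lower, against 22.4% and 26.4% of all tested genes. None of the 4 genes with an HSPB number was higher at 24 h and 1 was lower. Median log2 changes at 24 h were 0.75 for the mitochondrial chaperonin, 0.54 for HSP90, 0.49 for HSP70, 0.44 for CCT, 0.39 for co-chaperones and HSF1, 0.09 for J-proteins and 0.00 for the HSPB genes. At 48 h they were 0.75, 0.53, 0.32, 0.55, 0.43, 0.00 and -0.06 in the same order. The order of these classes was not tested, since each class is a different set of genes and not a replicate.

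**Figure D1:**
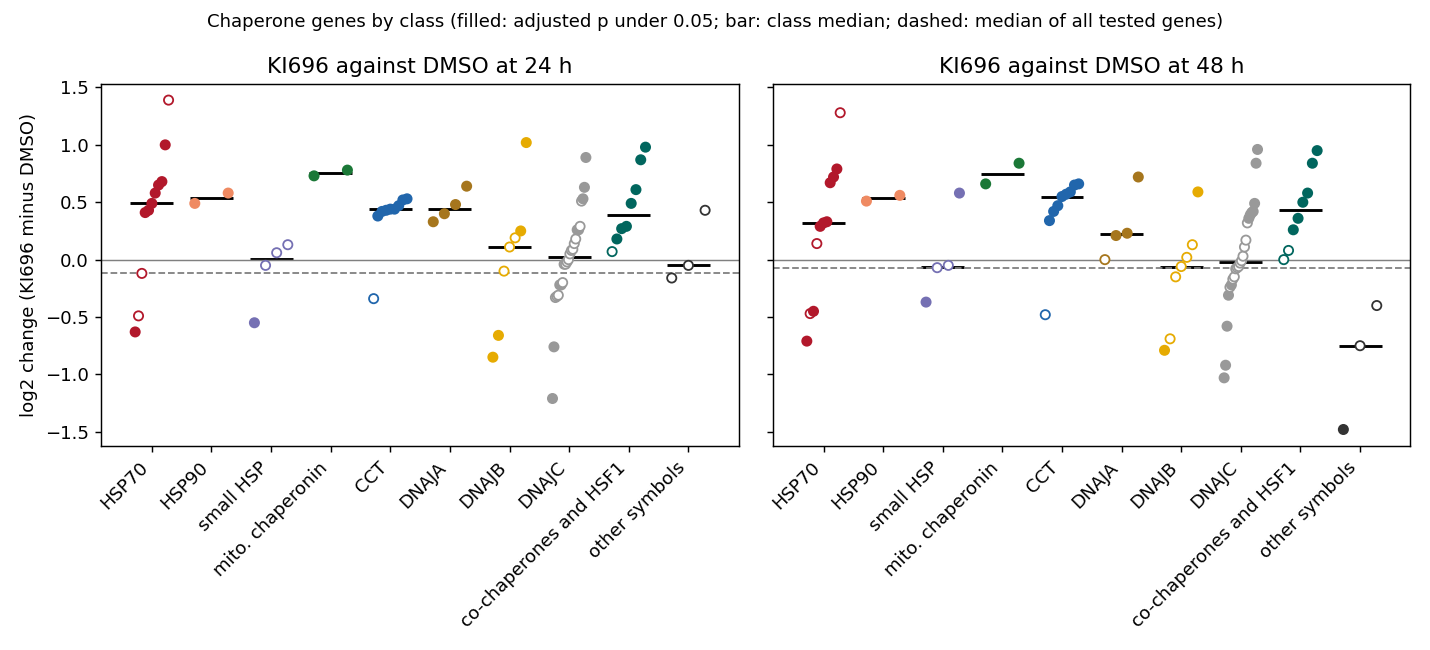
Log2 change with KI696 (vertical axis) of each tested chaperone gene by class, at 24 h (left) and 48 h (right). Filled points have an adjusted p under 0.05, bars are class medians and the dashed line is the median of all tested genes. HSP90, mitochondrial chaperonin and CCT genes lie together above 0 except CCT6B, while the DNAJC genes run from -1.21 to 0.89 at 24 h.

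The changes also differed with level. Of the 34 chaperone genes with a mean of at least 100 CPM, 28 were higher and 2 were lower at 24 h, with a median of 0.44. Among all 2445 genes at that level, 868 were higher and 651 lower, with a median of 0.05. Of the 40 tested chaperone genes under 100 CPM, 9 were higher and 5 were lower, with a median of 0.03, where all 10768 such genes had 1520 higher, 3383 lower and a median of -0.16. Summed over all 78 genes, chaperone transcripts took 19120 and 18830 CPM in DMSO and 26470 and 27000 CPM in KI696 at 24 h. At 48 h the sums were 17920 and 17460 CPM in DMSO and 24110 and 24680 CPM in KI696. The DMSO and KI696 sums did not overlap at either time.

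HSPA8, the constitutive cytosolic HSP70, had the highest level per length of the HSP70 genes with a known exon length, at 393 CPM per kb of exon in DMSO at 24 h. Its level was 1919 and 1886 CPM in DMSO and 2768 and 2912 CPM in KI696 at 24 h, and 1842 and 1766 CPM against 2197 and 2220 CPM at 48 h. All 4 KI696 libraries lay above all 4 DMSO libraries, and those of 24 h lay above those of 48 h. HSPA8 rose 1.49-fold at 24 h (log2 change 0.58, SE 0.05, limma adjusted p = 2.3e-06) and 1.22-fold at 48 h (0.29, SE 0.05, adjusted p = 0.00041). Its rise at 48 h was no longer called with quantile scaling, at a log2 change of 0.07 (adjusted p = 0.27).

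HSPA1A and HSPA1B, neighbouring genes on chromosome 6, encode the stress-inducible HSP70 and are nearly identical. HSPA1B stood at 145 and 144 CPM in DMSO and at 292 and 287 CPM in KI696 at 24 h, and at 126 and 125 CPM against 201 and 199 CPM at 48 h. It rose 2.00-fold at 24 h (log2 change 1.00, SE 0.05, adjusted p = 5.3e-08) and 1.59-fold at 48 h (0.67, SE 0.05, adjusted p = 7.3e-07), and its groups did not overlap. HSPA1A stood at 36.7 and 32.8 CPM in DMSO and at 31.1 and 32.5 CPM in KI696 at 24 h, and at 34.4 and 33.1 CPM against 24.7 CPM in both KI696 libraries at 48 h. Its KI696 libraries were the lower ones at both times. The change at 24 h did not pass the test (-0.12, SE 0.10, adjusted p = 0.31), and at 48 h HSPA1A fell by 0.45 on the log2 scale (SE 0.10, adjusted p = 0.002).

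Reads from the stretches that these 2 genes share cannot be given to either gene with confidence. Of all 75-base words in the exons of HSPA1B only 26.8% occur in no other gene of the annotation, and 70.1% also occur in HSPA1A. For HSPA1A the values are 30.7% and 69.3%. The sources used here do not give how the authors' counting treated such reads. The sum of both genes was 181 and 177 CPM in DMSO and 323 and 320 CPM in KI696 at 24 h, and 160 and 158 CPM against 226 and 223 CPM at 48 h. That is 1.80-fold and 1.41-fold, and the sums did not overlap at either time. HSPA1B took 78.5 to 81.5% of the sum in DMSO and 88.9 to 90.4% in KI696. The start regions of the pair are shown because they are so alike: 277 of 299 aligned positions are identical, and the longest shared run is 49 bases. Both hold 1 heat shock element of 2 units (GAANNTTC or TTCNNGAA on either strand, capitals), 106 bases before the RefSeq start in HSPA1A (GRCh38.p14, chr6:31815293-31815592, plus strand) and 105 before it in HSPA1B (chr6:31827488-31827787, plus strand).
HSPA1A: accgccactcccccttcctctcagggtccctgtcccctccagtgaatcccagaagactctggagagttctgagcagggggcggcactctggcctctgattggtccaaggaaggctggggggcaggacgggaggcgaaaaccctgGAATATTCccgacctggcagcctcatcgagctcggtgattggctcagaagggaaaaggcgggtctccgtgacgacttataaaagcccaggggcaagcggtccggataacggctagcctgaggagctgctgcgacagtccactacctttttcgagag
HSPA1B: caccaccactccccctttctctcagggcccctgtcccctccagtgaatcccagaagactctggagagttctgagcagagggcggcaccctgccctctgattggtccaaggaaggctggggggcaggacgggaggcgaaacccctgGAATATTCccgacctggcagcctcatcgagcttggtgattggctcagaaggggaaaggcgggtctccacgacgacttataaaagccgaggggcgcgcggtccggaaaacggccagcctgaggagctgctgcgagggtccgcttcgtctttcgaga

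HSPH1, a large HSP70 relative that acts as a nucleotide exchange factor, stood at 319 and 330 CPM in DMSO and 439 and 438 CPM in KI696 at 24 h. At 48 h it stood at 294 and 314 CPM in DMSO and 325 and 345 CPM in KI696. KI696 libraries were above DMSO libraries at both times, by a wider margin at 24 h. HSPH1 rose at 24 h (log2 change 0.43, SE 0.06, adjusted p = 4.8e-05), and at 48 h the change of 0.14 (SE 0.06) gave an adjusted p of 0.056. Without DMSO 48 h library B the 48 h value was 0.19 (adjusted p = 0.032), and without KI696 48 h library A it was 0.18 (adjusted p = 0.041). Of the relatives HSPA4 and HSPA4L, which act in the same exchange role, HSPA4 rose 1.40-fold at 24 h (0.49, SE 0.05, adjusted p = 8.7e-06) and 1.25-fold at 48 h. HSPA4L rose by a log2 change of 0.41 (SE 0.10) and 0.32 (SE 0.10).

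HSPA9 (mortalin), the HSP70 of the mitochondrial matrix, stood at 664 and 683 CPM in DMSO and 1055 and 1057 CPM in KI696 at 24 h, and at 622 and 581 CPM against 994 and 1090 CPM at 48 h. No library overlapped between treatments. It rose 1.57-fold at 24 h (log2 change 0.65, SE 0.06, adjusted p = 2.3e-06) and 1.73-fold at 48 h (0.79, SE 0.06, adjusted p = 3.1e-07). HSPA14, a ribosome-associated HSP70, rose by 0.68 (SE 0.10) and 0.72 (SE 0.10) on the log2 scale, and 2 annotated genes carry that symbol. Moving the other way, HSPA2, the testis-enriched HSP70, stood at 21.8 and 22.8 CPM in DMSO and 13.2 and 15.5 CPM in KI696 at 24 h, and at 28.5 and 31.2 CPM against 18.4 and 17.9 CPM at 48 h. HSPA2 was lower in every KI696 library than in either DMSO library of 24 or 48 h, and fell by 0.63 (SE 0.12, adjusted p = 0.00093) and by 0.71 (SE 0.12, adjusted p = 0.00033). HSPA1L, at 2.23 to 4.57 CPM, and HSPA12A, at 0 to 1.65 CPM, were tested and not called at either time. HSPA6, a strictly stress-inducible HSP70 in human cells, lay between 0.137 and 1.38 CPM and was highest in DMSO 24 h library B.

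The cytosolic HSP90 genes had the highest levels per length of all chaperones in DMSO at 24 h, 722 CPM per kb for HSP90AB1 and 596 for HSP90AA1. The inducible HSP90AA1 stood at 3209 and 3041 CPM in DMSO and 4505 and 4819 CPM in KI696 at 24 h, and at 2795 and 2581 CPM against 3996 and 3901 CPM at 48 h. The constitutive HSP90AB1 stood at 2187 and 2112 CPM against 2978 and 3074 CPM at 24 h, and at 2013 and 2011 CPM against 2816 and 2932 CPM at 48 h. For both genes every KI696 library exceeded every DMSO library. HSP90AA1 rose by 0.58 (SE 0.06, adjusted p = 6.7e-06) at 24 h and by 0.56 (SE 0.06, adjusted p = 6.3e-06) at 48 h on the log2 scale, and HSP90AB1 by 0.49 (SE 0.05, adjusted p = 7.2e-06) and 0.51 (SE 0.05, adjusted p = 3.6e-06).

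**Figure D2:**
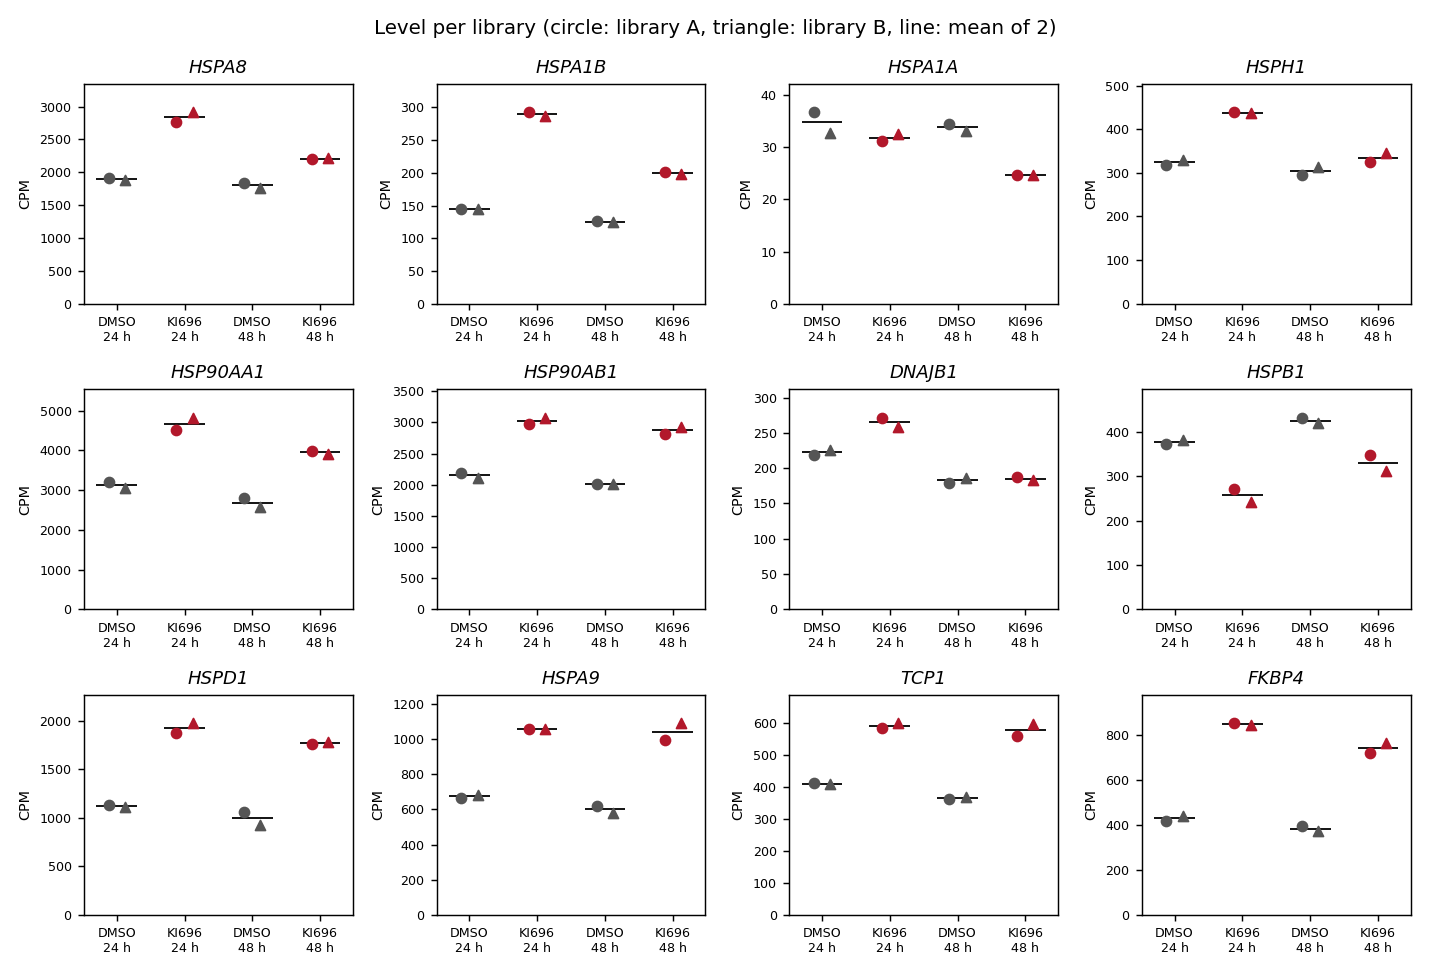
Level in CPM (vertical axes, from 0) of 12 chaperone genes in each library, with circles for library A, triangles for library B and lines for the mean of both. HSPA8, HSPA1B and HSP90AA1 lie above all DMSO points in every KI696 library, and HSPB1 lies lower with KI696 at each time, at 272 and 243 CPM against 373 and 382 CPM at 24 h.

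Among the HSP90 co-chaperones, FKBP4, CHORDC1, AHSA1 and STIP1 were higher at both times. FKBP4 (FKBP52), a prolyl isomerase that binds HSP90 in steroid receptor complexes, stood at 418 and 441 CPM in DMSO and 853 and 844 CPM in KI696 at 24 h, and at 396 and 371 CPM against 722 and 766 CPM at 48 h. Its KI696 libraries had nearly 2 times the DMSO level, 1.98-fold at 24 h (log2 change 0.98, SE 0.06, adjusted p = 7.1e-08) and 1.94-fold at 48 h (0.95, SE 0.06, adjusted p = 5.6e-08). CHORDC1 (CHP1), a zinc-binding HSP90 partner, stood at 91.4 and 86.6 CPM against 158 and 169 CPM at 24 h, and at 74.0 and 71.5 CPM against 134 and 127 CPM at 48 h. CHORDC1 rose 1.83-fold and 1.79-fold, with no overlap between treatments. AHSA1, which speeds the ATPase of HSP90, rose by 0.61 at 24 h (SE 0.06, adjusted p = 5.1e-06) and 0.58 at 48 h (SE 0.06, adjusted p = 5.3e-06) on the log2 scale, and STIP1 (HOP) rose 1.41-fold at each time.

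BAG3, the exchange factor that hands HSP70 clients to autophagy, stood at 107 and 109 CPM in DMSO and 130 and 131 CPM in KI696 at 24 h, and at 91.7 and 92.8 CPM against 104 and 116 CPM at 48 h. It rose by 0.27 (SE 0.07, adjusted p = 0.005) and 0.26 (SE 0.07, adjusted p = 0.0067) on the log2 scale. Without KI696 48 h library B the 48 h change was 0.18 and not called (adjusted p = 0.087), and with the lung lineage mean as a covariate the 24 h change was 0.13 (adjusted p = 0.46). HSPBP1, an HSP70 exchange factor, rose at both times (0.29, SE 0.08, and 0.36, SE 0.08). HSPBAP1, which binds HSPB1, was called at neither time. HSF1 itself stood at 131 and 142 CPM in DMSO and 161 and 150 CPM in KI696 at 24 h, and at 149 and 164 CPM against 157 and 154 CPM at 48 h. Its groups overlapped at 48 h. At 24 h the log2 change was 0.18 (SE 0.07, adjusted p = 0.043), and it was not called without DMSO 24 h library A (0.12, adjusted p = 0.29), without KI696 24 h library A (0.13, adjusted p = 0.25) or without KI696 24 h library B (0.23, adjusted p = 0.059).

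All 4 DNAJA genes were higher at 24 h and 3 at 48 h, against 18.1% and 22.4% of all tested genes. DNAJA1, a main partner of HSPA8, stood at 411 and 387 CPM in DMSO and 532 and 521 CPM in KI696 at 24 h, and at 382 and 392 CPM against 461 and 437 CPM at 48 h. It rose by 0.40 (SE 0.05, adjusted p = 6.7e-05) and 0.21 (SE 0.05, adjusted p = 0.0059) on the log2 scale, and the 48 h call was lost with quantile scaling (0.12, adjusted p = 0.087) and without both 48 h libraries A (0.15, adjusted p = 0.063). DNAJA2 rose by 0.33 (SE 0.06) and 0.23 (SE 0.06). DNAJA3 (TID1), which works with HSPA9 in mitochondria, rose by 0.64 (SE 0.07) and 0.72 (SE 0.07). DNAJA4 stood at 40.8 and 42.6 CPM against 57.4 and 58.7 CPM at 24 h, and at 41.2 and 49.0 CPM against 41.8 and 48.0 CPM at 48 h. DNAJA4 was separated by treatment at 24 h (0.48, SE 0.10, adjusted p = 0.0018) and overlapped at 48 h (adjusted p = 0.98). With the lung lineage covariate, the 24 h changes of DNAJA4 (0.19, adjusted p = 0.41) and DNAJA2 (0.24, adjusted p = 0.089) were not called.

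DNAJB genes moved in both directions. DNAJB1 (HSP40), the classic heat-inducible J-protein, stood at 218 and 226 CPM in DMSO and 271 and 259 CPM in KI696 at 24 h, and at 179 and 187 CPM against 187 and 183 CPM at 48 h. It rose at 24 h (log2 change 0.25, SE 0.06, adjusted p = 0.0027), and its 48 h groups overlapped (0.02, SE 0.06, adjusted p = 0.83). With the lung lineage covariate the 24 h change was again 0.25, with an adjusted p of 0.078. DNAJB4, a close relative of DNAJB1, stood at 24.3 and 21.5 CPM against 48.6 and 44.9 CPM at 24 h, and at 24.0 and 20.5 CPM against 33.5 and 33.8 CPM at 48 h. DNAJB4 rose 2.03-fold (1.02, SE 0.11, adjusted p = 1e-05) and 1.51-fold (0.59, SE 0.11, adjusted p = 0.00062). DNAJB2, which carries ubiquitin-binding motifs, fell by 0.66 (SE 0.10, adjusted p = 0.00013) and by 0.79 (SE 0.10, adjusted p = 2.2e-05). DNAJB5, at only 2.08 to 5.19 CPM, fell by 0.85 at 24 h (SE 0.27, adjusted p = 0.021), a call lost without DMSO 24 h library A (-0.70, adjusted p = 0.14) or without KI696 24 h library A (-0.68, adjusted p = 0.13).

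Among 24 tested DNAJC genes, 5 were higher and 3 lower at 24 h, against 18.1% and 30.5% of all tested genes. At 48 h, 7 were higher and 5 lower, against 22.4% and 26.4% of all tested genes. DNAJC2 (MPP11), the J-protein of the ribosome, stood at 65.8 and 55.2 CPM in DMSO and 109 and 115 CPM in KI696 at 24 h, and at 55.2 and 56.5 CPM against 112 and 106 CPM at 48 h. It rose 1.85-fold (log2 change 0.89, SE 0.09, adjusted p = 3.8e-06) and 1.95-fold (0.96, SE 0.09, adjusted p = 1.3e-06). DNAJC11, of the mitochondrial inner membrane organizing system, rose by 0.53 (SE 0.08) and 0.42 (SE 0.08). DNAJC25 rose by 0.63 (SE 0.13) and 0.49 (SE 0.13), the second not called without DMSO 48 h library B (0.38, adjusted p = 0.064). DNAJC22 stood at 8.66 and 8.16 CPM against 3.31 and 3.71 CPM at 24 h, and at 9.47 and 8.32 CPM against 4.35 and 4.84 CPM at 48 h. DNAJC22 fell by 1.21 (SE 0.20, adjusted p = 0.00033) and by 0.92 (SE 0.20, adjusted p = 0.0022), and DNAJC4 fell by 0.76 (SE 0.16) and by 1.03 (SE 0.16). The 24 h call of DNAJC4 was lost with the lung lineage covariate (-0.53, adjusted p = 0.17), and the 48 h call of DNAJC22 without both 48 h libraries A (-0.75, adjusted p = 0.05). The J-proteins DNAJB12, DNAJB14, DNAJC1, DNAJC10 and DNAJC16, which sit in or face the endoplasmic reticulum and were kept by the symbol rule, were not called at 24 h, and 1 of the 5, DNAJC10, was lower at 48 h (-0.22, SE 0.07, adjusted p = 0.019).

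In mitochondria, HSPD1 (HSP60) and its lid HSPE1 (HSP10) are transcribed from opposite strands of a shared start region on chromosome 2, and the annotated spans of the genes overlap. HSPD1 stood at 1128 and 1116 CPM in DMSO and 1873 and 1974 CPM in KI696 at 24 h, and at 1060 and 931 CPM against 1762 and 1783 CPM at 48 h. HSPE1 stood at 69.1 and 63.7 CPM against 118 and 102 CPM at 24 h, and at 70.7 and 56.1 CPM against 102 and 97.4 CPM at 48 h. Both genes were separated by treatment at both times. HSPD1 rose 1.71-fold (log2 change 0.78, SE 0.06, adjusted p = 9.6e-07) and 1.78-fold (0.84, SE 0.06, adjusted p = 3.4e-07), and HSPE1 rose 1.66-fold (0.73, SE 0.10, adjusted p = 9.1e-05) and 1.58-fold (0.66, SE 0.10, adjusted p = 0.00016). No source used here gives the strand setting of the counting, so reads from bases that both genes cover cannot be told apart. Of the 8 members placed in mitochondria, 5 were higher at 24 h and 6 at 48 h, against 18.1% and 22.4% of all tested genes. Lower were 0 at 24 h and 1 at 48 h, against 30.5% and 26.4% of all tested genes. DNAJC15 was called at neither time, DNAJC19 rose at 48 h (0.39, SE 0.13, adjusted p = 0.02), and DNAJC30 fell by 0.58 at 48 h (SE 0.13, adjusted p = 0.0022).

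The CCT subunits moved within a narrow range. TCP1, the first subunit, stood at 411 and 409 CPM in DMSO and 583 and 599 CPM in KI696 at 24 h, and at 361 and 370 CPM against 558 and 597 CPM at 48 h. CCT2 stood at 391 and 381 CPM against 548 and 562 CPM at 24 h, and at 379 and 368 CPM against 491 and 545 CPM at 48 h. Every one of the 8 ring subunit genes TCP1, CCT2, CCT3, CCT4, CCT5, CCT6A, CCT7 and CCT8 had both KI696 libraries above both DMSO libraries at each time. Their log2 changes ran from 0.38 (CCT7) to 0.53 (TCP1) at 24 h and from 0.34 (CCT6A) to 0.66 (TCP1) at 48 h. TCP1 rose 1.44-fold (SE 0.05 on the log2 scale, adjusted p = 6.1e-06) and 1.58-fold (adjusted p = 6.5e-07), CCT3 rose 1.35-fold and 1.33-fold, and CCT8 rose 1.39-fold and 1.57-fold. CCT6B, a testis form of the sixth subunit, lay at 0.775 to 1.35 CPM and was not called. The pseudogene CCT6P3 was called lower at 48 h (adjusted p = 0.041) on 9 and 31 DMSO reads and 1 and 10 KI696 reads, and the call was lost in 9 alternatives.

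The small heat shock protein gene HSPB1 (HSP27), the only one of its class above 100 CPM, stood at 373 and 382 CPM in DMSO and 272 and 243 CPM in KI696 at 24 h. At 48 h it stood at 432 and 420 CPM in DMSO and 349 and 312 CPM in KI696. Both KI696 libraries were below both DMSO libraries at each time, the opposite side from the HSP90, CCT and mitochondrial chaperonin genes. HSPB1 fell by 0.55 (SE 0.07, adjusted p = 3e-05) and by 0.37 (SE 0.07, adjusted p = 0.0006) on the log2 scale. HSPB6 and HSPB8, at 15.9 to 20.2 and 26.8 to 38.8 CPM, were called at neither time. HSPB11 stood at 23.0 and 21.0 CPM against 23.8 and 22.1 CPM at 24 h and at no more than 20.6 CPM in both DMSO libraries against 33.8 and 27.5 CPM at 48 h, where it rose by 0.58 (SE 0.12, adjusted p = 0.0015).

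**Figure D3:**
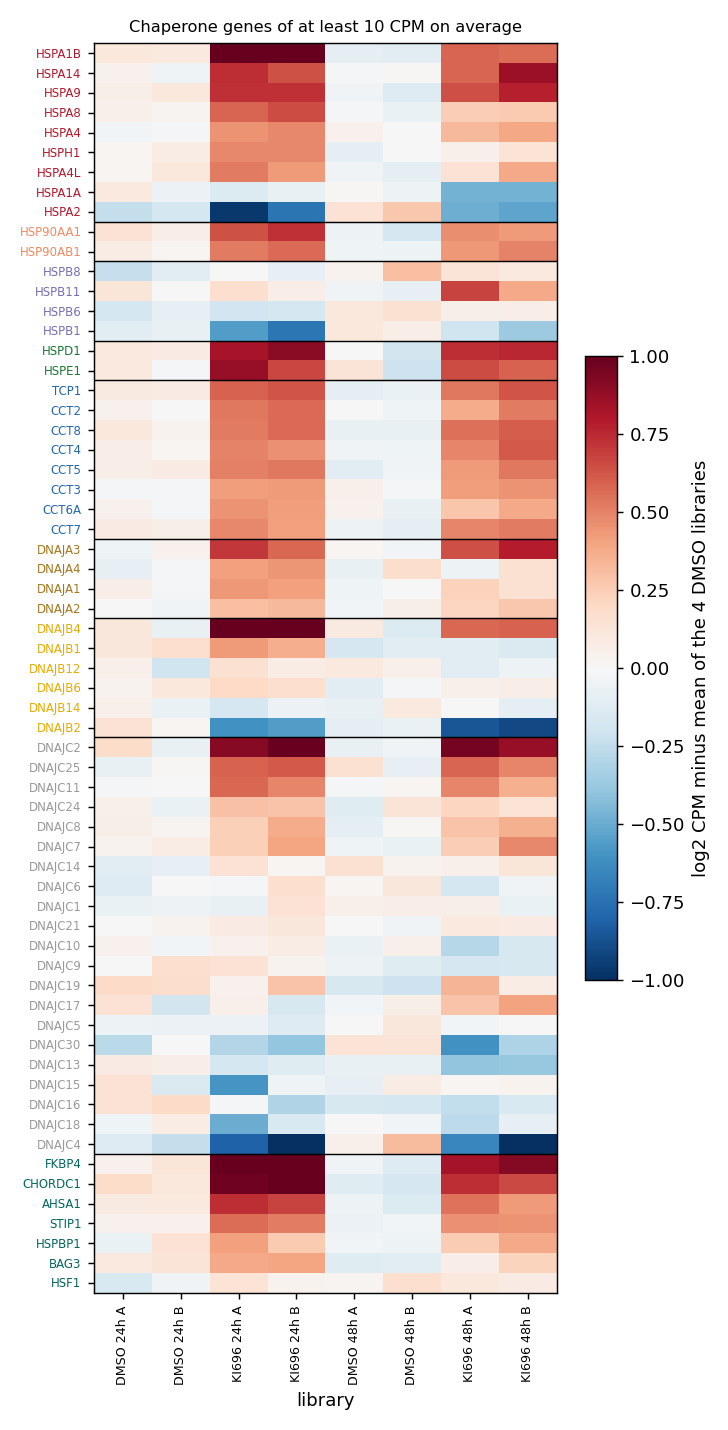
Log2 difference of each chaperone gene of at least 10 CPM (63 genes) to its mean over the 4 DMSO libraries, one column per library, ordered by class. The colour scale ends at 1 in each direction, and larger values have the end colour. The HSP90, CCT and mitochondrial chaperonin genes are higher in all 4 KI696 columns, while HSPB1, HSPA2, DNAJB2 and DNAJC4 are lower there.

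The heat shock element is the site that HSF1 binds, a run of alternating GAA and TTC units. RefSeq start windows, 250 bases before to 50 after a gene's start on GRCh38.p14, were matched for 67 of the 78 genes. An element of 3 units (GAANNTTCNNGAA or TTCNNGAANNTTC, both strands) lay in at least 1 window of 8 of the 67 genes (11.9%) and of 0.608% of 27305 symbols overall. Some genes have more than 1 window, and a gene was counted where any of its windows matched. The 8 genes are CHORDC1, DNAJA1, DNAJB6, HSP90AA1, HSP90AB1, HSPA6, HSPA8 and HSPD1. A shorter element of 2 units, contained in the longer one, was found for 38.8% of the 67 genes against 16.2% of all symbols. The core of the antioxidant response element that NRF2 binds (TGACNNNGC or GCNNNGTCA) was found for 13 of the 67 genes (19.4%) against 16.1% of all symbols. Of the matched genes that were higher at 24 h, 6 of 33 held the 3-unit element, as did 0 of 6 that were lower and 1 of 25 that were not called. A match is a run of letters and does not show that a factor binds.

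Windows of 4 genes that rose at both times are shown for their 3-unit elements, which are in capitals. Of genes with more than 1 window the one with a match is shown: HSP90AA1 and HSPD1 each have another window, in which no element was found. Overlapping elements form 1 longer run in CHORDC1 and HSPD1. All 4 lie on the minus strand: HSPA8 at chr11:123062087-123062386 with elements starting 230 and 55 bases before the RefSeq start of that window, HSP90AA1 at chr14:102086995-102087294 with 1 at 88, CHORDC1 at chr11:90223000-90223299 with 3 at 60, 55 and 50, and HSPD1 at chr2:197499791-197500090 with 2 at 245 and 240.
HSPA8: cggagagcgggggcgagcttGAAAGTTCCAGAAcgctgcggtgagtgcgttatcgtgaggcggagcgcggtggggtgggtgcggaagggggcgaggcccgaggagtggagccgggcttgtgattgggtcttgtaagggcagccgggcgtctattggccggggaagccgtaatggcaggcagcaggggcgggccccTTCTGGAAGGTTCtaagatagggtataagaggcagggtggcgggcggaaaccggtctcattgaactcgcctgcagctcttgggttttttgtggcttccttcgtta
HSP90AA1: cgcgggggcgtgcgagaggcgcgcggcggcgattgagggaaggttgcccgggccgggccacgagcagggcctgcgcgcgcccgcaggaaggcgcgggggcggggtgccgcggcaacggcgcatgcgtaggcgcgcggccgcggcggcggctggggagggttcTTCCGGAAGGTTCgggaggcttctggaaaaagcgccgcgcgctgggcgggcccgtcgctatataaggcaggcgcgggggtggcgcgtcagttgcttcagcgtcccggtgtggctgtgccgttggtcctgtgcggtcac
CHORDC1: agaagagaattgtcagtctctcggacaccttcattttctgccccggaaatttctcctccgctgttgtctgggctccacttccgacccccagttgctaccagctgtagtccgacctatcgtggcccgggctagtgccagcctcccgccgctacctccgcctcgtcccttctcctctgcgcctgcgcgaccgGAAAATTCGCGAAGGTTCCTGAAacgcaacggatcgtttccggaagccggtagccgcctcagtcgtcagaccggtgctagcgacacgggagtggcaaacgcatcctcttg
HSPD1: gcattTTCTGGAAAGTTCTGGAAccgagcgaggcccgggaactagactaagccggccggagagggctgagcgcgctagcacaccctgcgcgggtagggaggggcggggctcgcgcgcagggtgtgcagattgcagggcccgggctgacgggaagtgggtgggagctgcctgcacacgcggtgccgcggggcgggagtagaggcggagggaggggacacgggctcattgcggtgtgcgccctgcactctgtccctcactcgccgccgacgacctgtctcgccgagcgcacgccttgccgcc

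No chaperone gene passed the test of a difference between the 48 h and 24 h effects of KI696, where 0.848% of all tested genes did. In limma, 16 of the 74 had an unadjusted p under 0.05, and the smallest adjusted p was 0.065, for HSPA1B (difference -0.33, SE 0.08). The next were HSPA8 (-0.29, SE 0.07, adjusted p = 0.084) and HSPH1 (-0.29, SE 0.08, adjusted p = 0.1). Leaving out DMSO 48 h library A gave 3 called genes, HSPH1 (-0.34, adjusted p = 0.036), DNAJA4 (-0.60, adjusted p = 0.028) and HSPA1B (-0.33, adjusted p = 0.043). Leaving out KI696 48 h library B gave 2, HSPH1 (-0.34, adjusted p = 0.048) and DNAJA4 (-0.58, adjusted p = 0.045). Without both 48 h libraries A, the differences were -0.29 for HSPH1, -0.50 for DNAJA4, -0.25 for HSPA8, -0.34 for HSPA1B and 0.26 for HSPA9. Without both libraries B they were -0.29 for HSPH1, -0.32 for HSPA8 and -0.33 for HSPA1B. Each of these fits leaves a single library in both 48 h groups, so only the sizes are given. Over all tested genes the difference was called for 89 higher and 23 lower with all libraries, for 363 and 140 without DMSO 48 h library A, and for 455 and 75 without KI696 48 h library B.

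**Figure D4:**
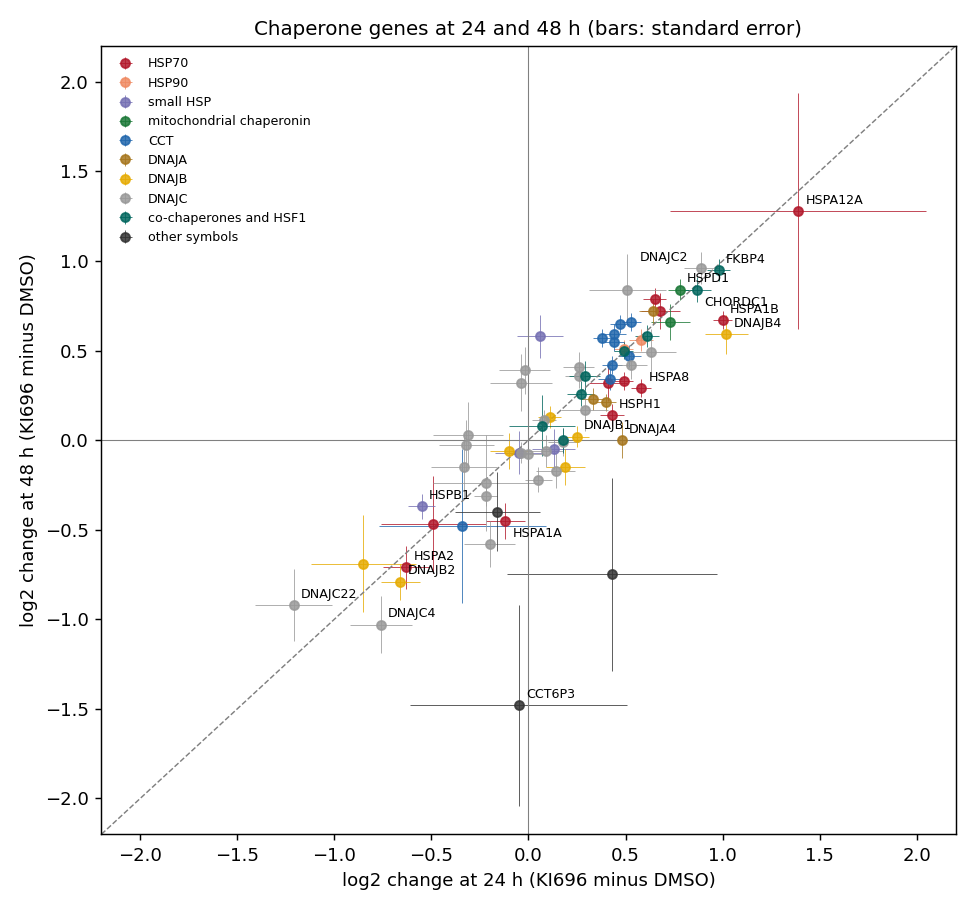
Log2 change with KI696 at 48 h against that at 24 h for the 74 tested chaperone genes, with standard errors as bars, coloured by class. FKBP4, HSPD1 and DNAJC2 lie near the diagonal, while HSPA1B, DNAJB4, HSPA8, HSPH1 and DNAJA4 lie below it. The 2 axes have no libraries in common.

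Comparing the KI696 libraries of the 2 times directly, 15 of the 74 chaperone genes were lower at 48 h and 2 were higher, against 3.61% lower and 8.38% higher of all tested genes. Among the lower genes, HSPA1B fell by 0.54 (SE 0.05, adjusted p = 0.00017), DNAJB1 by 0.52 (SE 0.06, adjusted p = 0.00027), DNAJB4 by 0.47, HSPH1 by 0.39, HSPA8 by 0.36 and CHORDC1 by 0.32 on the log2 scale. The others were DNAJA4, HSPA1A, DNAJC10, HSP90AA1, BAG3, DNAJC13, DNAJA1, AHSA1 and FKBP4, which fell by 0.37 to 0.19. In the same order, their changes in DMSO were 0.11, -0.04, -0.01, -0.22, -0.23, -0.15, -0.04, -0.19 and -0.16. Of these, only that of HSP90AA1 was called. HSPB11 (0.41) and HSPB1 (0.36) were higher. No CCT gene was called, nor HSPD1, HSPE1 or HSPA9, whose changes were -0.12, -0.14 and -0.02. With quantile scaling HSPD1 (-0.30, adjusted p = 0.009) and CCT5 (-0.19, adjusted p = 0.024) were called lower, as was CCT2 without both 48 h libraries B (-0.18, adjusted p = 0.029). The pseudogene CCT6P3 was called lower without KI696 48 h library B (-2.08, adjusted p = 0.023) and without both libraries B. The count of lower genes was 5 without KI696 24 h library A, 4 without KI696 24 h library B and 8 without KI696 48 h library A, where the counts over all tested genes were 75, 43 and 204 in place of 477.

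In DMSO, 4 chaperone genes were lower at 48 h than at 24 h and 1 was higher, against 4.35% and 5.29% of all tested genes (9.64% in either direction). The lower ones were CHORDC1 (-0.29), DNAJB1 (-0.28), HSP90AA1 (-0.22) and HSPA1B (-0.20), and HSPA2 was higher (0.41). This count of 5 was 0 without either DMSO 24 h library, 1 without DMSO 48 h library B, 2 without either KI696 24 h library and 8 without DMSO 48 h library A. In each of these fits the count over all tested genes moved in the same direction as this chaperone count. Library A of 48 h stood apart from library B in the lung lineage genes in both treatments, and the part of this in the time comparisons was not tested. Within groups the chaperone genes differed little between libraries, with a median absolute difference between A and B of 0.06 to 0.09 on the log2 scale, where all tested genes had 0.10 to 0.14. These medians were not matched for level: 34 of the 74 chaperone genes had at least 100 CPM, against 2445 of all 13213 tested genes.

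Genes that work beside the chaperones and were not taken by the symbol rule gave the following counts. Of 17 other HSP90 co-chaperones, 11 were higher at 24 h and 3 lower, led by PTGES3 (p23, log2 change 0.67), NUDC (0.58) and CACYBP (0.55). Of 14 other HSP70 co-chaperones, 6 were higher and 1 lower, among them BAG2, an inhibitor of the ubiquitin ligase CHIP (1.17, SE 0.06), and GRPEL1, the exchange factor of HSPA9 (0.73, SE 0.06). Prefoldin, which passes actin and tubulin chains to CCT, and its relatives had 5 of 12 higher and none lower, with PFDN2 at 0.57. Of 15 mitochondrial chaperones, proteases and import factors, 8 were higher and 1 lower, including TRAP1, the mitochondrial HSP90 (0.63), TIMM13 (0.75) and TIMM44 (0.58). The median log2 changes of these lists were 0.31, 0.09, 0.21 and 0.37, beside -0.12 for all tested genes. Of all tested genes 18.1% were higher and 30.5% lower at 24 h. At 48 h the lists had 10, 6, 7 and 10 genes higher and 2, 1, 0 and 1 lower, against 22.4% and 26.4% of all tested genes.

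Other HSF1 target genes and heat shock factors were less uniform, with 6 of 21 higher and 3 lower at 24 h and a median of 0.01. Of all tested genes 18.1% were higher and 30.5% lower at that time. RRP12, of ribosome biogenesis (0.86), ZFAND2A (AIRAP, 0.67) and HSF2 (0.49) were among those higher. In the endoplasmic reticulum list, none of 14 folding genes was higher at either time, where 18.1% and 22.4% of all tested genes were. Of the 14, 9 were lower at 24 h and 5 at 48 h, against 30.5% and 26.4% of all tested genes. The medians of the list were -0.23 and -0.13. Of the 6 chaperones left out by the rule, HSPA5 (BiP) fell by 0.21 at 24 h (SE 0.06, adjusted p = 0.01), and HSP90B1 (GRP94) had a change of -0.11 (adjusted p = 0.11). DNAJC3 fell by 0.32 and DNAJB9 by 0.92, while DNAJB11 had a change of 0.04 (adjusted p = 0.7). HSPA13 fell by 3.44 (SE 0.61, adjusted p = 0.00049), from 6.65 and 8.16 CPM in DMSO to 0.490 and 0.428 CPM in KI696, and stood at 4.67 and 1.21 CPM against 3.36 and 0.678 CPM at 48 h, libraries A above libraries B.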

How the data were processed

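The authors deposited 1 table of log2 values per gene and library, with the hg38 build, R 4.0.3 and edgeR named in the submitters' processing notes; the sources used here do not give the aligner, counter, annotation or strand setting. The log2 values share a floor of -2.05 (0.242 CPM) and step in whole reads on the antilog scale, so reads were recovered (largest distance to a whole number 2.4e-09) and levels are given as CPM scaled to the authors' effective library size. Depth was 6974235 to 14170211 reads, and 3 reads come to 0.213 to 0.428 CPM, which covers counting error only. Of 14556 rows, 21 with a date for a symbol were left out.

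Genes of at least 1 CPM in at least 2 libraries (13213) were tested on the deposited log2 values with limma 3.58.1 in R 4.3.3, a mean per group and a variance trend, two-sided, with Benjamini-Hochberg adjustment at 0.05. The fit had 4 residual degrees of freedom (13.1 after moderation). The KI696 comparison of 48 h with 24 h, and the fits without both 48 h libraries A or B, were added after seeing the data. Alternatives were other scalings, an added 1 CPM, no filter and a filter of 5 CPM, no trend, a lung lineage covariate and leaving out libraries.

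The chaperone genes and lists were chosen with earlier results of these data known, and compartments after values were seen. Named genes are up to 4 called members per class with the smallest p at 24 h, up to 2 called the other way, up to 2 at 48 h, and 16 named in any case. Other members were named to account for a class. Coordinates, exon lengths and shared words come from GENCODE 29 on GRCh38, and start windows from RefSeq.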

Additional observations from a re-analysis of the deposited data

How the results depend on the processing

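Over 18 alternatives, the 74 results for named genes gave 1330 comparisons. Of these, 1287 kept their side of the threshold, 34 lost the call and 9 gained it. A change of direction was counted only where either fit called the result, and there were 0. Changes of sign between uncalled results were not counted. In all, 13 of 66 called results lost the call at least once. Counts of genes higher with KI696 at 24 h ran from 28 to 43 and at 48 h from 32 to 38. The count lower at 24 h was 4 with the lung lineage covariate. In fits without both 48 h libraries A or B, single libraries are assumed to vary like the other groups. For the difference between effects, the count of 0 became 1 with median-ratio scaling (HSPA1B) and 1 with quantile scaling (HSPA8). Leaving out single libraries gave 0 to 3. For DMSO at 48 h against 24 h, the count of 5 became 3 with TMM scaling, 3 with no filter, 1 with the covariate, 0 with no trend, 11 with quantile scaling and 14 without both 48 h libraries A, and 0 to 8 without single libraries. Within KI696, the count of 2 higher became 1 with TMM, median-ratio or quantile scaling, the covariate, no filter or without both 48 h libraries A, and 0 with no trend, and 0 to 2 without single libraries. The count of 15 lower became 2 with no trend, and 4 to 16 without single libraries. The counts over all tested genes changed as well. For DMSO at 48 h against 24 h they were 699 higher and 575 lower in the main fit. They were 702 and 493 with TMM scaling, 533 and 424 with no filter, and 467 and 314 with the covariate. With no trend they were 92 and 61, and with quantile scaling 807 and 719. Within KI696 they were 1107 and 477 in the main fit and 124 and 28 with no trend. The cause of the changes in these counts was not tested.

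At 24 h the median log2 change of all genes was -0.12 as deposited, -0.01 with TMM, -0.02 with median-ratio and 0.03 with quantile scaling, and that of the chaperone genes was 0.27, 0.37, 0.37 and 0.31. Without single libraries, 34 to 39 genes were higher and 5 to 8 lower at 24 h, and 34 to 36 higher and 8 to 10 lower at 48 h. No paired analysis was possible because the columns carry no replicate number, so the replicate block was not run, and edgeR and DESeq2 fits on the recovered reads were not run. Depth limits DNAJB5, CCT6B, CCT6P3, HSPA12A and the untested genes, which lie within a few CPM of the 3-read limit.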
